A study of Mus musculus with 3 samples.

Results

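Pairs of neighbouring CpGs were grouped by the distance between their cytosines, from 2 bp, where the CpGs touch, to 200 bp. A pair was formed by CpGs on an autosome with no other listed CpG between them, and CpGs in runs of 20 or more with gaps up to 50 bp were left out. This rule gave 14728794 pairs among the 19642069 neighbouring pairs of the 19 autosomes (75.0%). Within each library only CpGs with at least 15 reads over both strands were used, which left 12680067 pairs for TAPSβ, 10606059 for CAPS and 10923907 for PS. No level entered the choice of the pairs.

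All 3 libraries came from gDNA of E14 cells, a mouse embryonic stem cell line, with 1 library per method and no comparison group. The paper grew the cells in medium with serum, LIF, PD0325901 and CHIR99021. Fragments were selected at 200 to 400 bp for CAPS and at 300 to 500 bp for TAPSβ and PS. TAPSβ blocks 5hmC with glucose and then reads 5mC, with the rare 5fC and 5caC, as T. CAPS oxidizes 5hmC chemically and reads it, also with 5fC and 5caC, as T. PS reads 5fC and 5caC as T by borane reduction alone. A level is the percentage of reads with T at the CpG. Without replicate libraries no difference between conditions could be tested, and the spread over the 19 autosomes is given as a description. The base calls at autosomal CpG cytosines came to 499928217 for TAPSβ, 368690187 for CAPS and 375116986 for PS, with a median of 26, 19 and 19 reads per CpG over both strands.

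5mC in mammals sits mostly at CpGs and is copied to the new strand after replication by DNMT1, while DNMT3A and DNMT3B add it anew. TET enzymes oxidize 5mC to 5hmC and further to 5fC and 5caC. In the nucleus most CpGs lie on nucleosomes, where DNA turns past the histones about every helical turn, or in the linker between them, so the distance between CpGs bears on how often they share a face of the helix or a nucleosome. CTCF, a zinc finger protein that binds DNA and organizes chromatin loops, is known for the regular array of nucleosomes beside its sites.

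The pairs below show what the spacing means on the DNA. At each of several spacings the pair with the highest CAPS level at its weaker CpG is given, among pairs with 15 or more reads in every library, no more than 2 times the median coverage and no modified PS read. The CpGs of the pair are in capitals with 10 bases on each side, on the forward strand of mm9.
Prdm16, 2 bp, chr4:153722154-153722177: cagagctgcaCGCGtacttcttgt
Ap3b1, 10 bp, chr13:95332788-95332819: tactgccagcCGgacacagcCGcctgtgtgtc
Ust, 20 bp, chr10:8040987-8041028: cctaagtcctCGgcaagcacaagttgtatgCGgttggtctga
Near Slc38a2, 50 bp, chr15:96586983-96587054: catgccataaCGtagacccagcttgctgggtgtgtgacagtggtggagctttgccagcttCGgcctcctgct

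The pair 2 bp apart lay in a coding exon of Prdm16, which encodes a zinc finger regulator of brown fat and stem cells. Its CpGs had CAPS levels of 31.3% (5 of 16 reads, exact 95% binomial interval 11 to 58.7) and, at the second CpG, 6 of 15 reads (16.3 to 67.7), with TAPSβ levels of 29.0% (9 of 31) and 22.6% (7 of 31). The pair 10 bp apart, in an intron of Ap3b1, a subunit of the AP-3 sorting complex, had CAPS levels of 41.2% (7 of 17) and 37.5% (6 of 16) beside TAPSβ levels of 43.5% (10 of 23) and 40.9% (9 of 22). In an intron of Ust, a sulfotransferase that acts on glycosaminoglycans, both CpGs of a pair 20 bp apart had a CAPS level of 35.0% (7 of 20 each) and TAPSβ counts of 17 of 34 and 19 of 36 reads. At 50 bp the pair lay 56864 bp from Slc38a2, an amino acid transporter gene, with CAPS levels of 26.3% at both CpGs (5 of 19 each). The intervals of these levels are wide and cover counting error only, and the pairs were picked for their CAPS level, so they are examples and not estimates.

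The corresponding pairs at wider spacings lay between genes. At 100 bp, on chr10:88165443-88165543, the CAPS levels were 31.3% (5 of 16) and 25.0% (4 of 16). At 150 bp, on chr8:114290843-114290993 and 1530 bp from Cfdp1, they were 26.3% (5 of 19) and 33.3% (6 of 18). At 200 bp, on chr2:144263723-144263923, 6 of 19 and 6 of 15 reads were modified. At all 7 of these spacings the pair picked had both CpGs at 25.0% or more in CAPS. Each was the highest of many pairs with few reads, so these levels say nothing about 5hmC at a spacing.

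The opposite kind of example is the pair with the largest difference in TAPSβ level between its CpGs, chosen for that difference among the same pairs.
Near Tcfcp2l1, 2 bp, chr1:120639049-120639072: agtgtgtgtgCGCGcatgcgcaag
Large, 10 bp, chr8:75636990-75637021: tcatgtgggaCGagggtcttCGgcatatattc
Near Spg21, 20 bp, chr9:65341244-65341285: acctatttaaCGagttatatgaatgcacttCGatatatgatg
Gm20388, 50 bp, chr8:125726191-125726262: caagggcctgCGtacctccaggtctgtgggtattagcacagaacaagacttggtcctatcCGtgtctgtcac

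Even touching CpGs were measured at nearly opposite levels in the pair picked. The pair 57315 bp from Tcfcp2l1, a transcription factor gene of the pluripotency network, had 0 of 24 TAPSβ reads modified at its first CpG, which allows a level of up to 12.5%, and 33 of 34 (97.1%) at its second. In an intron of Large, a glycosyltransferase gene whose product acts on dystroglycan, the first CpG had 27 of 28 reads modified (96.4%) and the second, 10 bp on, had 0 of 17, which allows up to 17.6%. Near Spg21 the counts were 0 of 18 and 28 of 33 (84.8%) at 20 bp, and in an intron of Gm20388 they were 30 of 34 (88.2%) and 0 of 29 at 50 bp. At wider spacings the pairs were in Gm2415 at 100 bp (23 of 25 and 0 of 17), in an intron of Prr5l at 150 bp (25 of 27 and 0 of 27) and in an intron of Pcx, which encodes pyruvate carboxylase, at 200 bp (33 of 35 and 0 of 27). Near Tcfcp2l1 the CpG without modified reads had fewer reads than its neighbour in TAPSβ (24 and 34), CAPS (17 and 30) and PS (19 and 32). The same held in Large (CAPS 15 and 32) and near Spg21 (CAPS 19 and 27), but in Gm20388 the CAPS reads were 22 and 21. Whether a sequence variant or misplaced reads lie behind these pairs was not tested, and no variant filter was added.

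Such pairs were rare at short range. Among TAPSβ pairs 2 to 10 bp apart, 22481 of 1694471 (1.33%) differed by 50 percentage points or more. The share was 4.44% at 111 to 120 bp and 4.19% at 191 to 200 bp. The mean absolute difference between the CpGs of a pair was 10.6 points at 2 to 10 bp, 17.3 points at 111 to 120 bp and 15.8 points at 171 to 180 bp.

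TAPSβ levels of neighbours were strongly correlated at short spacing, and the correlation fell, levelled off and rose again before 200 bp. Pearson's r was 0.903 across 161426 pairs 2 bp apart and 0.852 in the class of 2 to 10 bp (autosomes 0.826 to 0.871). It was 0.655 at 41 to 50 bp, 0.493 at 91 to 100 bp and had a local minimum of 0.453 at 131 to 140 bp. At 171 to 180 bp it was 0.474, and at 191 to 200 bp it was 0.442 (autosomes 0.387 to 0.483). The class of 171 to 180 bp lay above that of 131 to 140 bp on 18 of the 19 autosomes and above that of 191 to 200 bp on 18 of 19. The pairs of a class share libraries, regions and base composition, so r is a description of the class and carries no p.

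The same curve appeared when the CpGs of a pair were read from different molecules. A read comes from 1 strand, so cytosines on the same strand of a pair can share reads and those on opposite strands cannot. With at least 8 reads per cytosine, TAPSβ r was 0.856 on the same strand and 0.802 on opposite strands at 2 to 10 bp, and 0.449 and 0.428 at 191 to 200 bp. Opposite-strand r was 0.441 at 111 to 120 bp and 0.462 at 171 to 180 bp. The strands of the same CpG, taken as the reference at distance 0, had r of 0.845 in the pairs of 2 to 10 bp and 0.673 in those of 191 to 200 bp. The opposite-strand covariance of neighbours was therefore 94.9% of that between the strands of a CpG at 2 to 10 bp, 62.0% at 111 to 120 bp, 67.3% at 171 to 180 bp and 63.6% at 191 to 200 bp.

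**Figure D1:**
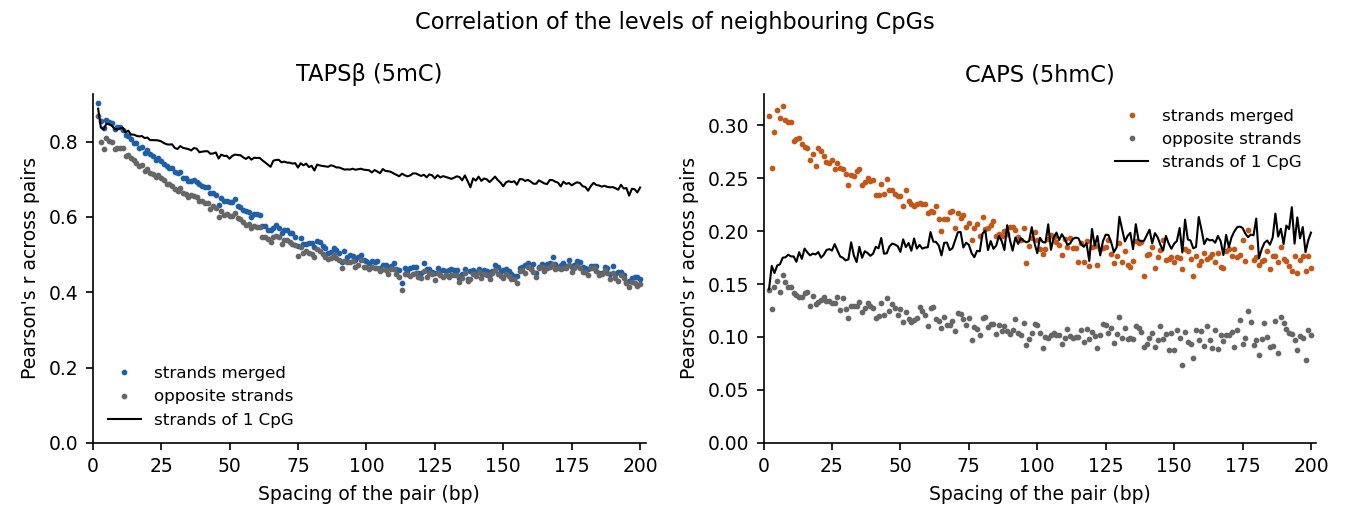
Pearson's r across neighbouring CpGs (y axis) at each spacing in bp (x axis) for TAPSβ (left) and CAPS (right), with both strands merged (coloured points), with the CpGs read on opposite strands (grey points) and between the strands of 1 CpG (black line). TAPSβ fell from 0.903 at 2 bp and had a shallow second rise near 175 bp, while CAPS fell from about 0.3 to below 0.2.

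CAPS levels of neighbours were weakly correlated at every spacing. Merged r was 0.305 at 2 to 10 bp (1521174 pairs, autosomes 0.293 to 0.319), 0.238 at 41 to 50 bp, 0.194 at 91 to 100 bp and 0.169 at 191 to 200 bp (158913 pairs, autosomes 0.134 to 0.185). On opposite strands r was 0.150 and 0.0986 in the first and last of these classes. The reference was low as well, with r of 0.172 and 0.20 between the strands of the same CpG. Relative to it, the opposite-strand covariance was 87.3% at 2 to 10 bp, 68.0% at 41 to 50 bp, 55.8% at 91 to 100 bp and 49.3% at 191 to 200 bp. CAPS r at 171 to 180 bp exceeded that at 131 to 140 bp on 10 of 19 autosomes.

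PS levels averaged 0.205% over the pairs, so nearly all CpGs had no modified read, and no order of spacings was read from them. PS r was 0.178 at 2 to 10 bp and 0.102 at 191 to 200 bp, with autosomes from 0.0016 to 0.264 in the latter class. At 2 bp the same-strand r was 0.237 and the opposite-strand r 0.0507. At 2 to 10 bp the opposite-strand r was 0.0655, above the 0.0284 between the strands of the same CpG, and it was above it in all 20 classes, so the latter is no upper limit in PS.

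TAPSβ levels rose with spacing. The mean level was 60.6% at 2 to 10 bp (SD over CpGs 28.5 points, autosomes 56.6 to 63.1%), 62.7% at 91 to 100 bp and 67.4% at 191 to 200 bp (SD 21 points, autosomes 65.4 to 68.7%). Of single spacings, 3 bp had the lowest mean, 56.6%, and 192 bp the highest, 67.8%. CpGs at low level became fewer, since 14.5% of CpGs were under 20% at 2 to 10 bp and 5.18% at 191 to 200 bp, while the share at 80% or more was 30.4% and 30.3%.

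Low CpGs kept low neighbours at short range. A CpG under 20% in TAPSβ had a neighbour under 20% in 82.1% of cases at 2 to 10 bp, in 67.2% at 41 to 50 bp and in 40.5% at 191 to 200 bp. A CpG at 80% or more had a neighbour at 80% or more in 63.6%, 40.8% and 42.6% of cases in these classes, with the lowest shares near 100 bp (32.7% at 91 to 100 bp) and 43.9% at 171 to 180 bp. CpGs at high level also made up more of all CpGs at the latter spacing, 30.7% against 23.2%. Neighbours of low CpGs were low in 51.2% of cases at 111 to 120 bp and in 43.5% at 171 to 180 bp, where low CpGs made up 6.83% and 5.46% of all.

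CAPS levels changed in another direction. The mean was 3.34% at 2 to 10 bp (autosomes 3.16 to 3.55%), 3.69% at 11 to 20 bp, 3.20% at 91 to 100 bp and 2.98% at 191 to 200 bp (autosomes 2.71 to 3.37%). These levels include the background of unmodified cytosines read as T, which was not subtracted. The highest mean of a single spacing was 3.89%, at 19 bp.

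**Figure D2:**
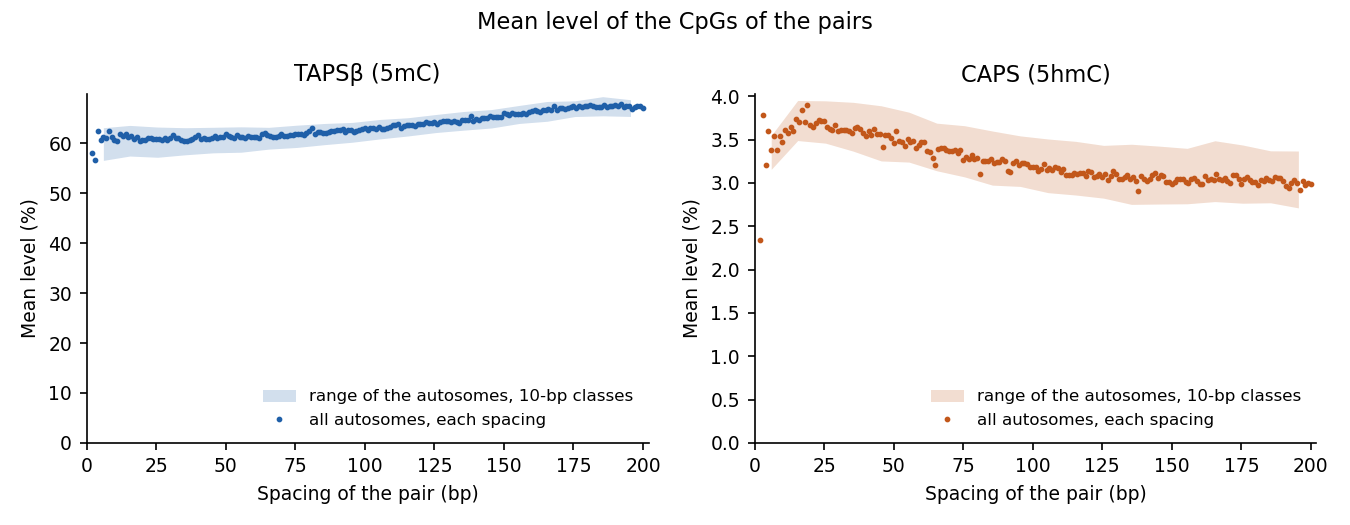
Mean level in % (y axis) of the CpGs of pairs at each spacing in bp (x axis) for TAPSβ (left) and CAPS (right). Points are single spacings over all autosomes and the band is the range of the 19 autosomes in 10-bp classes. TAPSβ rose from 60.6% to 67.4% between the first and last class, and the CAPS point at 2 bp, 2.34%, lies apart from the others.

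Touching CpGs, CGCG on both strands, stood apart in CAPS. At 2 bp the mean CAPS level was 2.34% (176194 pairs), against 3.78% at 3 bp, 3.21% at 4 bp and 3.6% at 5 bp. It was below the mean of every spacing from 3 to 10 bp on 19 of 19 autosomes (2.21 to 2.51% against 3.05 to 3.95%). Part of these pairs were of 1 sequence family, within 4 differences of the commonest sequence, and the 24066 of them with CAPS reads had levels of 1.11% and 1.24% at their CpGs. Without that family the mean at 2 bp was 2.53%, and with the commonest family left out in the same way the means at 3 to 10 bp were 3.21 to 3.78%. The bases compared around touching CpGs overlap, so the family is drawn more widely at 2 bp than at longer spacings. TAPSβ at 2 bp was 58.0%, between the 56.6% at 3 bp and the 62.4% at 4 bp. The lower CAPS level was found within each class of TAPSβ level. In pairs with a mean TAPSβ level under 20%, CAPS was 2.26% at 2 bp and 2.95 to 3.29% at the spacings of 3 to 10 bp. In pairs from 20 to 80% it was 3.65% and 4.2 to 4.58%, and in pairs at 80% or more it was 1.63% and 2.0 to 2.39%, with the smallest gap to 4 bp in both classes.

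The place of a cytosine within the pair also went with its CAPS level at short spacings. Reading each strand 5′ to 3′, the 5′ cytosine had a level of 2.49% and the 3′ cytosine 2.10% at 2 bp, over 3743006 and 3744577 reads. At 3 bp the order was the other way, 3.32% against 4.12%, and at 4 bp it was 3.47% against 2.81%. The gaps were smaller at 5 bp (3.43% against 3.63%), 8 bp (3.25% against 3.39%) and 9 bp (3.43% against 3.53%). At 6 bp the levels were 3.3% and 3.33%. In TAPSβ the 5′ and 3′ levels were 53.9% and 53.3% at 2 bp, 54.2% and 53.0% at 3 bp, and 59.6% and 60.4% at 4 bp. The exact 95% intervals of the CAPS levels do not overlap at 2, 3, 4, 5, 8 and 9 bp and overlap at 6, 7 and 10 bp, but they cover counting error only. At the shortest of these spacings the base next to a CpG is part of its neighbour or sits between the CpGs, so the sequence context and the spacing cannot be told apart.

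The CpGs of a pair with CAPS calls clustered. Tested one-sided against a false-positive rate of 0.0072, 882843 of 15277060 CpGs with 15 or more CAPS reads were called (5.78%; exact binomial test, Benjamini-Hochberg adjusted p under 0.05). The neighbour of a called CpG was called in 23.3% of cases at 2 to 10 bp (42768 of 183169), against 4.91% for the neighbour of an uncalled CpG. At 91 to 100 bp the shares were 16.7% and 5.37%, and at 191 to 200 bp they were 15.4% and 5.03%, 3.07 times as many. Reads shared by both CpGs enter these shares. Without them, a cytosine whose neighbour had 2 or more modified reads on the opposite strand had a CAPS level of 5.82% at 2 to 10 bp and 4.95% at 191 to 200 bp. Where the neighbour had no modified read on that strand the levels were 2.67% and 2.65%.

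By Pearson's r, 5mC and 5hmC of neighbours were weakly and negatively related. The r between the TAPSβ level of a CpG and the CAPS level of its neighbour, from libraries that share no reads, was -0.121 at 2 to 10 bp (1343542 pairs), -0.169 at 41 to 50 bp and -0.133 at 191 to 200 bp. At the same CpGs the r between TAPSβ and CAPS was -0.147, -0.189 and -0.222. These r do not give the shape of the relation. In the classes of TAPSβ level given above, CAPS of pairs at 2 to 10 bp was highest from 20 to 80%. It was lower both under 20% and at 80% or more.

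Spacing went with the kind of sequence. Of pairs 2 to 10 bp apart, 3.49% lay within 500 bp of a start site of a protein-coding transcript, against 0.755% of pairs 191 to 200 bp apart, and the mean number of other CpGs within 500 bp was 15.2 and 7. Over all spacings, pairs near start sites had a TAPSβ level of 30.2% and r of 0.878. Exonic, intronic and intergenic pairs had levels of 59.2%, 62.5% and 63.8% and r of 0.746, 0.657 and 0.622. CAPS levels in the same order of places were 3.25%, 3.91%, 3.63% and 3.10%. In the left-out runs TAPSβ was at 3.16% with r of 0.885 and CAPS at 1.21% with r of 0.226.

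In neighbouring pairs the second rise of TAPSβ r was found where CpGs were sparse. In pairs with 0 to 5 other CpGs within 500 bp, r was 0.612 at 2 to 10 bp, 0.237 at 111 to 120 bp and 0.349 at 171 to 180 bp. With 6 to 11 other CpGs it was 0.724, 0.412 and 0.473. With 12 or more it was 0.887, 0.637 and 0.620, so that no rise was seen. Between genes r was 0.405 at 111 to 120 bp and 0.444 at 171 to 180 bp, in introns 0.481 and 0.491, in exons 0.540 and 0.523, and near start sites 0.741 and 0.692.

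The change of TAPSβ level with spacing also depended on the number of CpGs nearby. Where 12 or more others lay within 500 bp, the level rose from 52.3% at 2 to 10 bp to 62.2% at 191 to 200 bp. With 6 to 11 others it was 69.8% at 2 to 10 bp, 65.3% at 111 to 120 bp and 67.8% at 191 to 200 bp, and with 0 to 5 others it was 72.6%, 65.3% and 68.6%. Of the 3 density classes, only that of 12 or more others thus had a higher level in the last class of spacing than in the first. In CAPS the level was 2.43% and 2.40% in the first and last class with 0 to 5 others, 3.19% and 3.21% with 6 to 11, and 3.63% and 4.04% with 12 or more, so the fall from 3.34% to 2.98% over all pairs was not seen at that size in any of the 3 density classes.

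**Figure D3:**
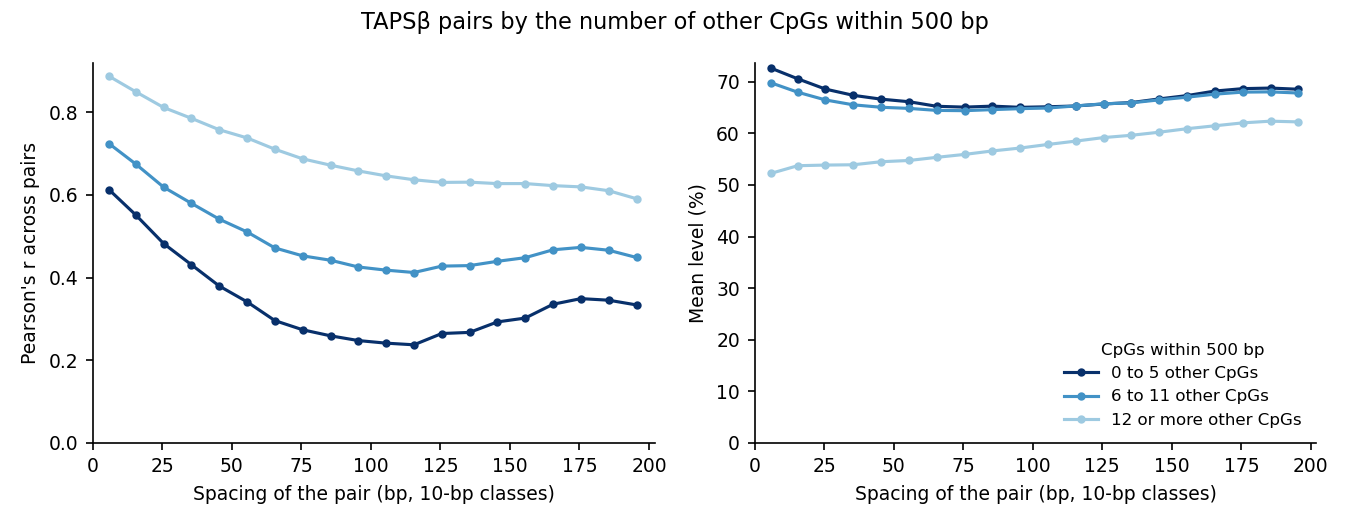
Pearson's r (left, y axis) and mean level in % (right, y axis) of TAPSβ pairs in 10-bp classes of spacing (x axis), split by the number of other CpGs within 500 bp of the middle of the pair. In pairs with 0 to 5 other CpGs r was 0.237 at 111 to 120 bp and 0.349 at 171 to 180 bp, and the level fell and rose again.

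A period of 10 bp, near the helical turn, was looked for by fitting a cosine to r at the 199 spacings beside a smooth trend. In TAPSβ its amplitude was 0.0036 ± 0.0009 (SE of the fit), the largest of 51 periods from 5 to 30 bp, with 15 bp next at 0.0033. The peak of the fitted cosine fell at multiples of 10 bp, and within 2 bp of them on 19 of 19 autosomes, which share the same sequence families. The cosine took 7.59% of the variation around the trend. On opposite strands the amplitude was 0.0020 ± 0.0010 and ranked 9th of 51, where no reads were shared. In CAPS the amplitude at 10 bp was 0.0023 ± 0.0009, ranked 26th, with the peak within 2 bp of multiples of 10 bp on 8 of 19 autosomes. Without the spacings of 2 to 10 bp the amplitude was 0.0027 in TAPSβ and 0.0006 in CAPS. The mean levels had no peak at 10 bp, which ranked 48th of 51 periods in TAPSβ and 25th in CAPS.

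Single spacings strayed further from the trend than any cosine, and at some of them 1 repeated sequence went with the deviation. The largest deviation of TAPSβ r was at 113 bp, where r was 0.425 across 41256 pairs, against 0.458 at 112 bp and 0.465 at 114 bp. At this spacing 1853 TAPSβ pairs carried the same sequence around their CpGs, with up to 4 differences in 24 bases. Their CpGs were at 43.7% ± 15.5 (SD over pairs) and 75.5% ± 14, and such pairs were found on 19 of 19 autosomes. Without them r at 113 bp was 0.464. At 75 bp the 5914 pairs of the commonest sequence were at 56.7% and 72.7%, and r was 0.522 with them and 0.552 without. The commonest sequence made less difference at 154 and 91 bp. At 154 bp, the second largest fall below the trend, r was 0.442 with its 864 pairs and 0.451 without, and at 91 bp it was 0.480 and 0.476, which left 91 bp as the furthest below the trend once these sequences were out. When the commonest sequence was left out at every spacing, the TAPSβ amplitude at 10 bp was 0.0023 ± 0.0007, still the largest of 51. These repeats were singled out after their values were seen.

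**Figure D4:**
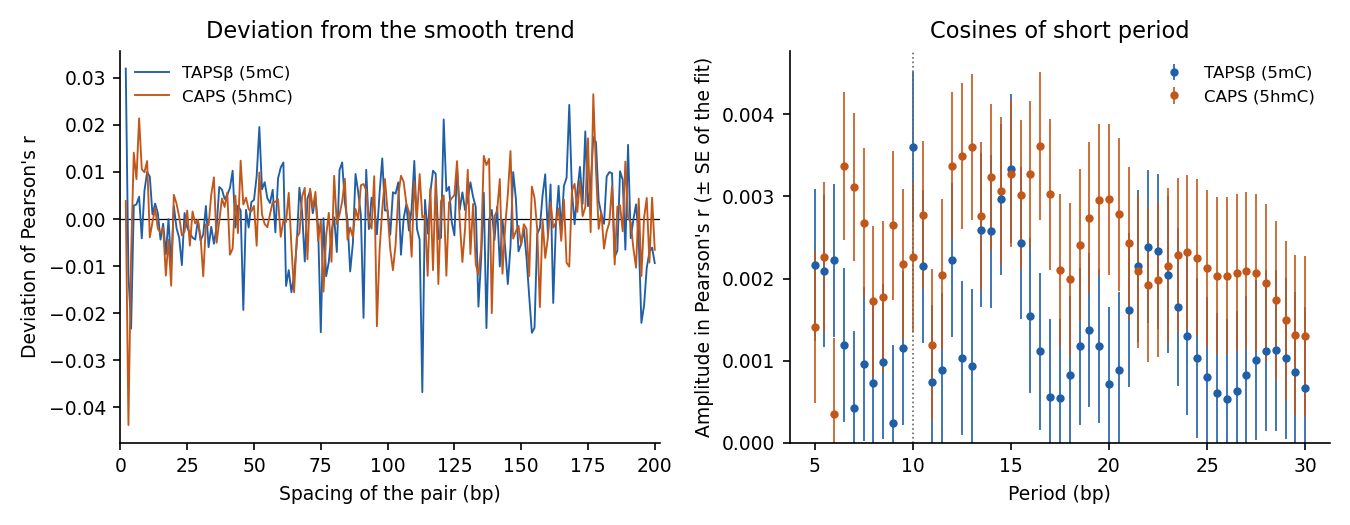
Left, deviation of Pearson's r from a smooth trend (y axis) at each spacing in bp (x axis). Right, amplitude of a fitted cosine (y axis, ± SE of the fit) by its period in bp (x axis). At 10 bp (dotted line) the TAPSβ amplitude of 0.0036 is the largest of its scan and the CAPS amplitude of 0.0023 ranks 26th, while the TAPSβ point at 113 bp falls 0.037 below the trend.

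The number of pairs also jumped between adjacent spacings. Relative to the running median over 21 spacings, pairs were most in excess at 150 bp (1.34 times), 4 bp (1.32), 196 bp (1.29), 81 bp (1.23) and 138 bp (1.23). Sequence that occurs 5 or more times made up 18.2% of the pairs 4 bp apart and 9.28% of those 150 bp apart. The commonest sequences of the 4-bp and 81-bp pairs are shown because they carry the CpGs that these spacings count most often.
4 bp, chr1:3494037-3494062: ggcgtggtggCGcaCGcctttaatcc
81 bp, chr1:3338082-3338184: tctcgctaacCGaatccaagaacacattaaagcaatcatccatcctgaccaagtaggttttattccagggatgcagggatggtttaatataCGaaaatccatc

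The first of these, which reads as part of the B1 family of short interspersed repeats, occurred 5242 times on 19 autosomes, and its CpGs had a level of 64.6% in TAPSβ and 3.25% in CAPS over all copies. The second occurred 1612 times and had 60.5% in TAPSβ and 1.08% in CAPS. At 150 bp, 984 copies of the commonest sequence had 72.6% and 2.22%. At 196 bp, 1006 copies had 63.5% and 1.33%, and at 138 bp, 807 copies had 65.1% and 1.58%. Beside means of 2.91 to 3.21% for all pairs of these spacings, the CAPS level of the commonest sequence was lower at 150, 196, 81 and 138 bp and about equal at 4 bp. The measures differ, since the copies have a level of summed reads and the means are over CpGs at the minimum depth. The copies had 3881 CAPS reads at 150 bp and 3898 at 196 bp, so their depth per CpG was low. At 81 and 138 bp they had 16796 and 10069 CAPS reads over 1612 and 807 copies, which is also a low depth per CpG, and at 4 bp 201324. The TAPSβ reads of the copies at 150, 196, 81 and 138 bp were 8392, 9020, 16008 and 11927, so these levels rest on few reads per CpG as well. Reads of near-identical copies can be placed at the wrong copy, which was not tested.

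A rise near 175 bp is about the distance from a nucleosome to the next, and neighbouring pairs span it only once, so all pairs of CpGs outside the runs up to 1000 bp apart were compared, neighbours or not. In 151770490 TAPSβ pairs r had a minimum of 0.668 at 111 to 120 bp, a maximum of 0.689 at 171 to 180 bp, a second minimum of 0.554 at 301 to 310 bp and a second maximum of 0.560 at 351 to 360 bp. On opposite strands the maxima and minima fell in the same classes, with 0.624, 0.648, 0.524 and 0.530. The class of 171 to 180 bp lay above 111 to 120 bp on 19 of 19 autosomes, and that of 351 to 360 bp above 301 to 310 bp on 15 of 19. Among cosines of 100 to 300 bp in steps of 5 bp, 190 bp had the largest amplitude, 0.0186 ± 0.0005, against a median of 0.0052 over the 41 periods. On single autosomes the largest lay at 185 to 190 bp. The rise differed in size between places. Between genes r was 0.617 at 111 to 120 bp and 0.657 at 171 to 180 bp, and in introns 0.638 and 0.656. In exons it was 0.689 at 121 to 130 bp and 0.696 at 161 to 170 bp, and near start sites 0.833 at 131 to 140 bp and 0.835 at 151 to 160 bp. The largest amplitude was at 190 bp in each of these places, but the second rise was not seen in all of them. Between genes the second minimum and maximum of r were 0.511 and 0.530, in introns 0.527 and 0.531, and near start sites 0.715 and 0.716. In exons no second rise was found. At this range the place of a pair is that of its first CpG, while for neighbouring pairs it is that of the middle. CpG-richer sequence weighs more in the values at this range, since each CpG there enters more pairs.

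Over all pairs CAPS had only a small rise at the same distance. Over 119931558 pairs r was 0.162 at 111 to 120 bp, 0.158 at 141 to 150 bp and 0.161 at 171 to 180 bp, and the last of these classes exceeded 141 to 150 bp on 13 of 19 autosomes and 111 to 120 bp on 6 of 19. The largest amplitude was 0.0055 at 170 bp, but the median over all 41 periods was 0.0048, so over all pairs no period stood out. On opposite strands, where no reads were shared, r was 0.0899 at 141 to 150 bp and 0.0944 at 171 to 180 bp and the largest amplitude was 0.0028, with a median of 0.0020. The rise was larger in pairs near start sites (3069181 pairs), where CAPS r was 0.185 at 121 to 130 bp and 0.213 at 181 to 190 bp, then 0.12 at 301 to 310 bp and 0.133 at 351 to 360 bp, and the largest amplitude was 0.0123 at 175 bp, against a median of 0.0089 over the 41 periods. In exons r was 0.126 at 131 to 140 bp and 0.135 at 171 to 180 bp, then 0.0921 at 301 to 310 bp and 0.102 at 351 to 360 bp. The classes given for a place are its own minima and maxima, from fewer pairs than over all places. Neither autosomes nor opposite strands were compared by place.

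Near matches of the CTCF motif the correlation of both modifications rose and fell with distance over a wider range. The motif, searched on both strands as its core consensus, had 6320 matches on the autosomes, and 1.43% of the TAPSβ pairs had a CpG within 1000 bp of a match. In these 2167685 pairs TAPSβ r was 0.901 at 2 to 10 bp, 0.614 at 91 to 100 bp, 0.707 at 161 to 170 bp, 0.422 at 261 to 270 bp, 0.489 at 331 to 340 bp, 0.271 at 441 to 450 bp and 0.315 at 491 to 500 bp. The distance between maxima was thus about 170 bp, the period of largest amplitude (0.0480 ± 0.0013). In 1629756 CAPS pairs r was 0.333 at 2 to 10 bp, 0.0564 at 81 to 90 bp, 0.180 at 181 to 190 bp, 0.0406 at 261 to 270 bp, 0.0931 at 341 to 350 bp, 0.0194 at 421 to 430 bp and 0.0791 at 511 to 520 bp. The CAPS amplitude was largest at 175 bp (0.0317 ± 0.0016). These values merge the strands, so reads shared by both CpGs of a pair enter them. Opposite strands were not compared near the motif.

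The rise from 91 to 100 bp to 171 to 180 bp near the motif was seen on 19 of 19 autosomes in TAPSβ and on 18 of 19 in CAPS. The mean levels of these pairs were 44.2% in TAPSβ and 3.72% in CAPS, against 60.1% and 3.54% where no match lay within 1000 bp. Without the pairs near a match, the TAPSβ maxima and minima stayed in the same classes with 0.667, 0.686, 0.554 and 0.560, and the largest amplitude was 0.0186 at 190 bp. In CAPS the largest amplitude without these pairs was 0.0052 at 185 bp, in place of 0.0055 at 170 bp. Motif matches were not checked for binding, and this split was made after the curve over all pairs had been seen. Only exact matches of the core consensus were searched, so CTCF sites without such a match can remain among the pairs left.

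**Figure D5:**
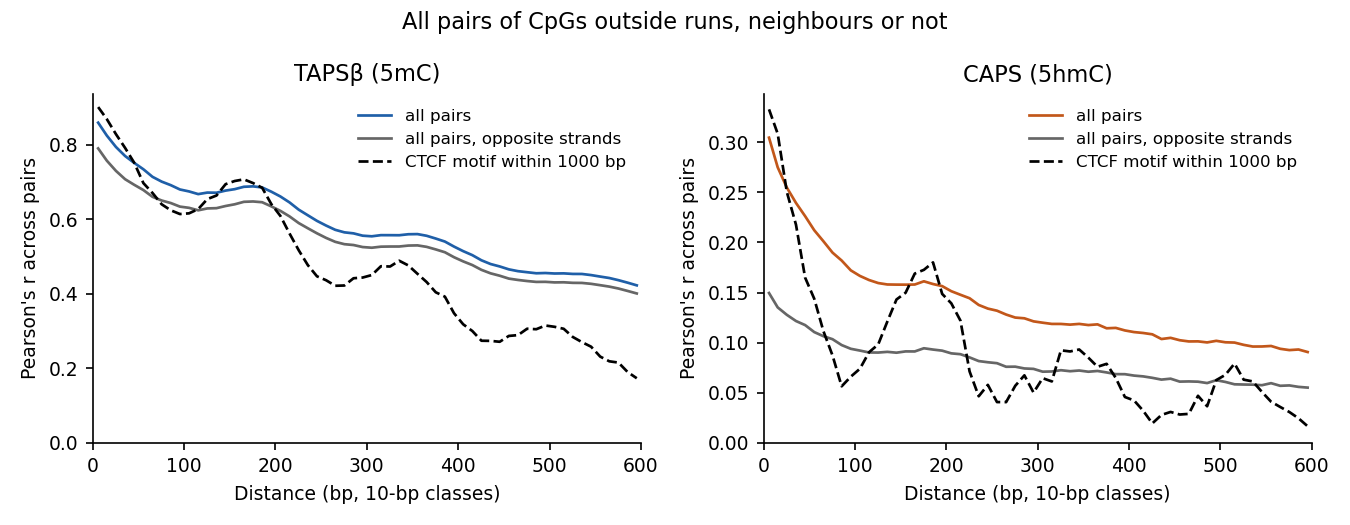
Pearson's r (y axis) by distance in bp (x axis, 10-bp classes) for all pairs of CpGs outside the runs, in TAPSβ (left) and CAPS (right), with strands merged (coloured), on opposite strands (grey) and, with strands merged, for pairs with a CpG within 1000 bp of a CTCF motif match (dashed). Near the motif TAPSβ r has maxima of 0.707, 0.489 and 0.315 at about 170, 340 and 500 bp, and CAPS has maxima of 0.180, 0.0931 and 0.0791.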

How the data were processed

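Whole-genome libraries of E14 mESC gDNA, 1 each for TAPSβ, CAPS and PS, gave the data. The authors trimmed reads with Trim Galore 0.3.1, mapped them with BWA 0.7.12 to mm9, removed duplicates with Picard 2.3.0 and called modified bases with asTair. Per CpG cytosine, the authors deposited raw counts of modified and unmodified reads, not normalized, and the fraction of modified reads, which was not used.

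The counts of both strands were summed per CpG, with a minimum of 15 reads, or 8 per cytosine for comparisons between strands. Pearson's r, means and cosine fits (beside a natural spline of 6 terms, weighted by pairs) were computed in Python 3 with numpy and scipy. Simulated data served to check the opposite-strand covariance ratio, a 10-bp cosine planted in it and the CAPS calls. The planted cosine was larger than the 10-bp amplitudes reported here, so detection at their size was not tested. Sequence and annotation came from NCBIM37, the build mm9, with GENCODE M1. Recurrent sequence means 5 or more identical copies of a pair with 10 bases on each side. No variant or region filter was added. CAPS calls used the study's kind of binomial test and its false-positive rate, but on CpGs with strands merged and at the minimum above, so they are not the study's sites. Intervals and limits (3 counts for a count of 0) cover counting error only.

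The members, lists and comparisons were chosen with earlier results of these data known. Pairs were named by rule at 7 spacings: the highest CAPS level at the weaker CpG and the largest TAPSβ difference, with chromosome 18 left out. The spacings with most excess pairs were named with their commonest sequence. Other minimum depths, filters, Spearman's rho, summed reads and 10 spline terms were tried as alternatives. The opposite-strand, repeat and CTCF comparisons were added after seeing the data. PS-c was not analysed here.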

Additional observations from a re-analysis of the deposited data

How the results depend on the processing

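No paired analysis was possible because each method had 1 library, and for the same reason no replicate could be left out. Of 76 alternative values for the 10 main results, 48 stayed within the 95% interval of the reported value and 28 moved outside it, against intervals that are narrow at these numbers of pairs. Pairs are not replicates, so these intervals do not measure how far another library would differ. For amplitudes the intervals rest on the SE of the fit and are wide. The CAPS amplitude at 10 bp counted as within although it went from 0.0023 to 0.0006 without the spacings of 2 to 10 bp. TAPSβ r at 2 to 10 bp was 0.804 with a minimum of 10 reads, 0.894 with 20, 0.854 without high PS levels, 0.853 without recurrent sequence and 0.770 as Spearman's rho. At 191 to 200 bp it was 0.402, 0.501 and, as rho, 0.350. CAPS r at 2 to 10 bp was 0.297 with 10 reads and 0.256 as rho, and at 191 to 200 bp rho was 0.134. The TAPSβ mean at 2 to 10 bp was 61.0% with 10 reads, 58.5% with 20, 60.7% with coverage limited to 2 times the median, 60.2% without recurrent sequence and 58.1% over summed reads, and at 191 to 200 bp it was 66.4%, 67.8% and, over summed reads, 67.1%. The CAPS mean at 2 to 10 bp was 3.49% with 10 reads, 3.04% with 20, 3.33% with limited coverage, 3.32% without high PS levels, 3.42% without recurrent sequence and 3.28% over summed reads. At 191 to 200 bp it was 3.02%, 2.88% and, without high PS levels, 2.97%.

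Rank correlation and the minimum depth moved r most in TAPSβ. The minimum depth also changed which CpGs were kept, and the cause of the change was not tested. CAPS r at 2 to 10 bp was 0.306 with 20 reads, against 0.305 as reported. Of the alternatives added later, the amplitude at 10 bp in TAPSβ was 0.0020 on opposite strands. The largest amplitude at 100 to 300 bp was 0.0172 in TAPSβ and 0.0028 in CAPS on opposite strands.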
